A study of Mus musculus with 238 samples.

Results

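The subject is a set of 8 genes of the cholesterol synthesis pathway, Hmgcs1, Sqle, Idi1, Fdft1, Lss, Insig1, Cyp51 and Dhcr7, followed by name through a count table of 21076 genes. RNA had been measured by bulk sequencing in dissected brain regions and liver of C57BL/6JN mice that were 19 months old. In the diet cohort, all females, 5 mice were dietary restricted (aDR, mice 61, 62, 64, 65 and 67) and 4 were fed ad libitum (AL, mice 63, 66, 68 and 69). In liver, restricted mice are labelled DR. In the plasma cohort, all males, 3 mice received young mouse plasma (YMP, mice 73, 77 and 81) and 4 received PBS (mice 72, 76, 80 and 84), in each case by retro-orbital injection. Up to 15 brain regions were taken from every mouse, and liver only from the diet cohort. No genetic change is named in the labels for any group. Sex and cohort coincide, so the cohorts were analysed apart and are never compared by a test. The libraries are of whole tissue, in which fewer cells of a type and less RNA per cell cannot be told apart.

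Cholesterol is built from acetyl-CoA through mevalonate, the isoprenoids, squalene and lanosterol. Transcription of the enzymes is driven by SREBP2, which is released from the endoplasmic reticulum when sterols in the membrane fall and is held back there by the INSIG proteins when they are plentiful. The brain makes its own cholesterol behind the blood-brain barrier, mostly in astrocytes and myelinating oligodendrocytes, while the liver makes it for export and for bile acids and answers to feeding. Along the route, Hmgcs1 makes HMG-CoA, Idi1 isomerises the isoprenoid units, Fdft1 (squalene synthase) and Sqle (squalene epoxidase) form squalene and its epoxide, and Lss closes the ring to lanosterol. Cyp51 removes a methyl group from lanosterol and Dhcr7 reduces the immediate precursor of cholesterol in the last step. Insig1 is not an enzyme but the regulator that retains SREBP2, and it is itself a sterol-responsive gene.

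Library totals ran from 606000 to 32400000 counts, with a median of 8440000 (3 significant digits), and 6 of 238 libraries were under 2000000. In composition, the library of aDR mouse 67 from pons stood apart, and the olfactory bulb library of YMP mouse 73 was the shallowest. Hepatocyte markers summed to between 149447 and 183956 CPM (counts scaled to a common library size by the TMM method) in the 4 AL livers. The libraries labelled choroid plexus carried choroid plexus markers at 665 to 8437 CPM in AL mice, beside oligodendrocyte markers at 5582 to 19030 CPM. In the corpus callosum, choroid plexus markers summed to 5048 to 18538 CPM in PBS mice and to 9.11 to 21.4 CPM in YMP mice. All 8 genes passed the filter on low counts in every comparison.

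On the mouse assembly GRCm38, with the GENCODE M21 annotation, Hmgcs1 lies at chr13:119690379-119708260 and Idi1 on the same chromosome at chr13:8885501-8892451. Cyp51 (chr5:4081145-4104746) and Insig1 (chr5:28071363-28078662) share chromosome 5. The others are Sqle at chr15:59315077-59331192, Fdft1 at chr14:63145150-63179578, Lss at chr10:76531588-76557138 and Dhcr7 at chr7:143823145-143848410. Because the libraries carry no strand, reads in exons shared with a gene of the opposite strand cannot be assigned. Such overlap covers 774 bases of Fdft1 exons (18.3%, with Ctsb) and 166 bases of Cyp51 exons (3.76%, with Akap9). Annotated genes on the opposite strand that have no row in the table overlap 557 bases of Hmgcs1, 323 of Idi1 and 381 of Lss. Values of these 5 genes are uncertain to that extent.

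RefSeq promoter sequences (GRCm38.p6) were at hand for 6 of the 8 genes, all but Sqle and Fdft1, and were read over the 250 bases before each start site. They are shown because the sterol response of this pathway is known to run through promoter elements. Their part in the levels measured here was not tested. Capitals mark matches, on either strand, to the letters TCACNCCAC (the core of a sterol regulatory element) and ATTGG (or CCAAT on the other strand, the NF-Y box); the 2 motifs do not overlap each other. The windows are those of Hmgcs1 (chr13:119690101-119690350), Idi1 (chr13:8885356-8885605), Lss (chr10:76531355-76531604) and Insig1 (chr5:28071162-28071411), all on the plus strand.
Hmgcs1: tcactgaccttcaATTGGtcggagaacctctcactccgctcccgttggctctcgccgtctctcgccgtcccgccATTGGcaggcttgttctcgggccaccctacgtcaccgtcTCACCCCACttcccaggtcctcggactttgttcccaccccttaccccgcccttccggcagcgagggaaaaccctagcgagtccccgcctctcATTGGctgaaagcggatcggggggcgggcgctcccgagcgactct
Idi1: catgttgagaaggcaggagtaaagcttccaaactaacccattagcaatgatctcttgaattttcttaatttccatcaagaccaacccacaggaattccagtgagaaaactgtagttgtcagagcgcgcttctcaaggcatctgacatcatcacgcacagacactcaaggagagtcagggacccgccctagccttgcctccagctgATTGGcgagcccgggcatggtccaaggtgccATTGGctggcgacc
Lss: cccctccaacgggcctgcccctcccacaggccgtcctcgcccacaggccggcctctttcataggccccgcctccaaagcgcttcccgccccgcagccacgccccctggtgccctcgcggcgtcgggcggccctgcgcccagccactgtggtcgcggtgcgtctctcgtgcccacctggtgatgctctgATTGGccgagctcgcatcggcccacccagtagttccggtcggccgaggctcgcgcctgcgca
Insig1: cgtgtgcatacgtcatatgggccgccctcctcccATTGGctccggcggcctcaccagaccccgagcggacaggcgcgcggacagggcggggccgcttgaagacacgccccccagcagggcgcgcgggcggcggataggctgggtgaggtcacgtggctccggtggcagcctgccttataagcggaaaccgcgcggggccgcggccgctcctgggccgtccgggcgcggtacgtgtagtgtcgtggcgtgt
The Hmgcs1 window held the sterol element letters once, 137 bases before the start site, and ATTGG 3 times. Idi1 held ATTGG at 2 places, and Lss and Insig1 at 1 each. Of the windows not printed, Cyp51 held 1 match to ATTGG or CCAAT and Dhcr7 held 2, both at the last of its 3 annotated start sites. Thus 6 of 6 genes had an ATTGG match, against 33.8% of 32851 promoter windows, and 1 of 6 had the sterol element letters, against 1.05%. Other motifs searched were GGGCGG (the GC box), in 6 of 6 genes against 32.7% of windows, CACGTG (the E box), in 2 of 6 against 6.02%, and the longer sterol element named SRE-1, in 0 of 6 against 0.0731%. A GC box can share letters with the end of ATTGG, and matches of these 3 are not capitalised. A gene with several start sites, as Dhcr7, had more windows than 1, so shares by gene and by window are not on the same footing. These matches describe letters in the windows and were not tested as sites.

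Per kilobase of principal transcript, and averaged over the 15 regions in AL mice, Hmgcs1 was the most abundant of the 8 in brain at 103 CPM per kb. Fdft1 followed at 45.5 CPM per kb, Sqle at 38.1, Insig1 at 26.6, Cyp51 at 22.7 and Dhcr7 at 16.4. Lss (7.51 CPM per kb) and Idi1 (7.38 CPM per kb) were the least abundant. Dividing by all annotated exon bases instead put Lss, whose exons add up to 10787 bases, last at 3.25 CPM per kb. It moved Sqle, with 5546 exon bases against 2758 in its principal transcript, from the third to the fifth place.

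The region comparison asked where in the control brain the pathway is expressed. All 8 genes differed between regions in AL mice, and all 8 in PBS mice (edgeR quasi-likelihood F test, Benjamini-Hochberg adjusted p at most 1.7e-06 in AL and 8.4e-06 in PBS). That is no mark of these genes, because 98% of all genes tested passed in AL mice and 96% in PBS mice. The medulla and thalamus were at the top and the cerebellum and caudate putamen at the bottom. Averaged over the 8 genes in AL mice, the medulla ranked 1.63 of 15, the thalamus 3.13, the entorhinal cortex 4.25 and the pons 4.38, against 14.0 for the caudate putamen and 14.1 for the cerebellum. In PBS mice the medulla ranked 1.75, the thalamus 1.88, the entorhinal cortex 4.5, the motor cortex and the pons 5.25 each, the caudate putamen 13.3 and the cerebellum 14.1. Each of the 8 genes was higher in medulla than in cerebellum in both cohorts, by 0.69 (Lss) to 1.84 (Sqle) on the log2 scale in AL mice, with adjusted p at most 1.7e-07. The tests of region levels and of pairs of regions have no mouse term and count regions of 1 mouse as independent.

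**Figure D1:**
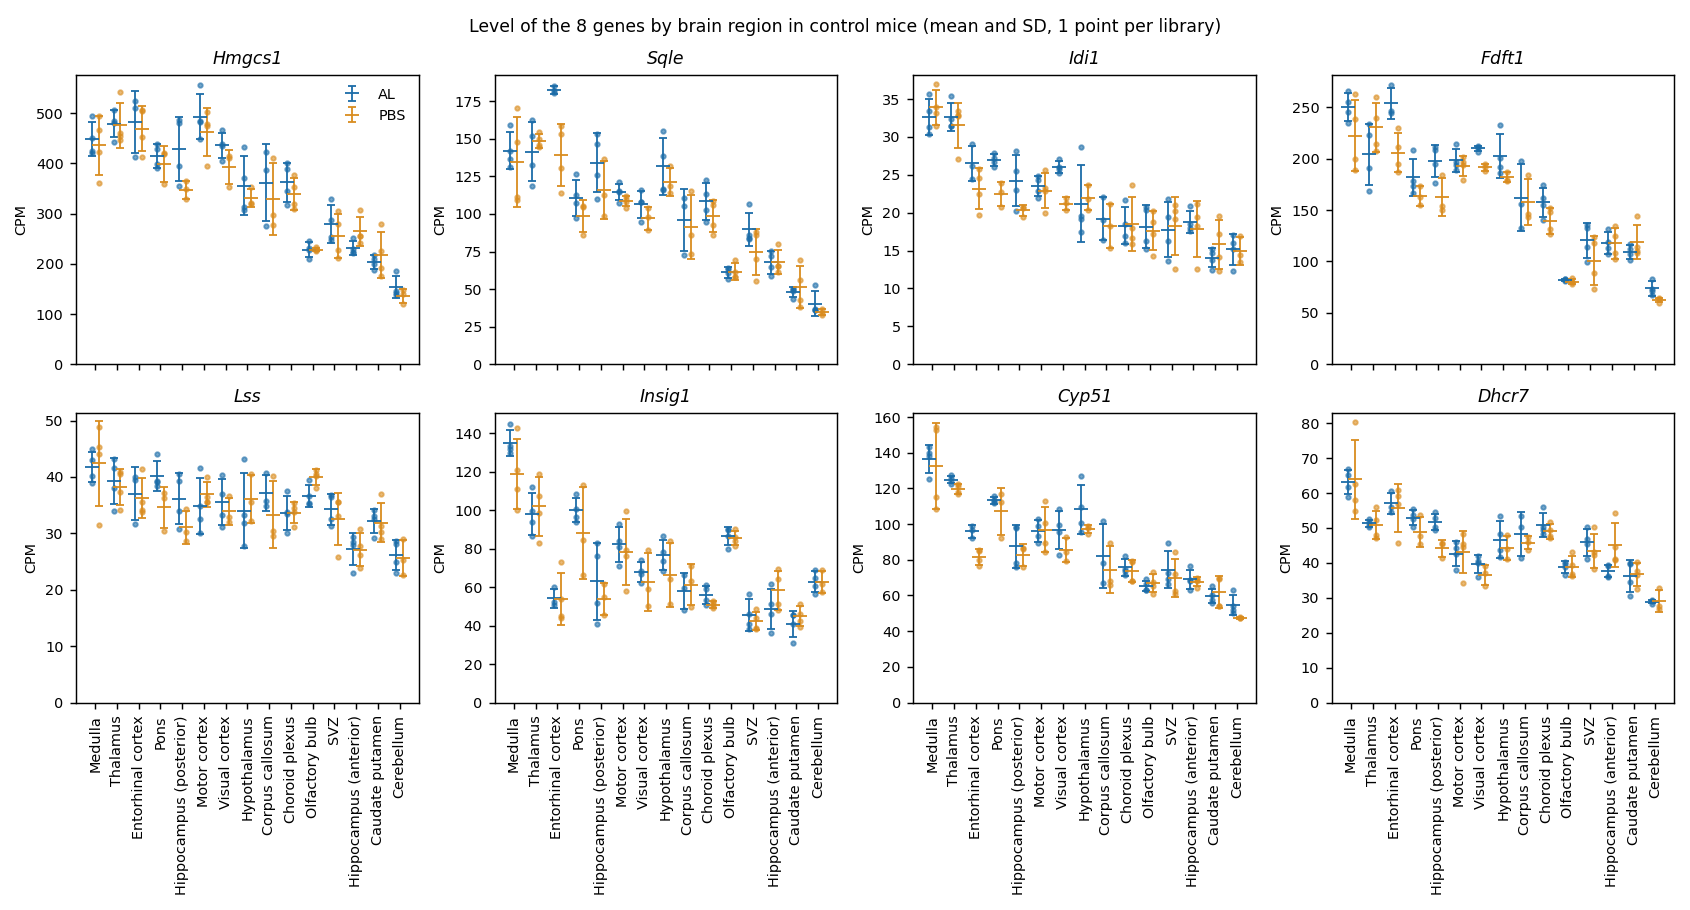
Level of each gene (CPM, linear axis from 0) in 15 brain regions of AL mice (blue) and PBS mice (orange), 1 point per library with the mean and SD, regions ordered by their mean rank in AL mice. Most panels fall from medulla and thalamus on the left to caudate putamen and cerebellum on the right, and the Lss panel is the flattest.

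Among the early enzymes, Hmgcs1 in AL mice ran from 493 ± 44.9 CPM in motor cortex (SD, n = 4) to 153 ± 22.0 CPM in cerebellum (SD, n = 4), a ratio of 3.22. Idi1 ran from 32.7 ± 2.44 CPM in medulla (SD, n = 4) to 14.0 ± 1.31 CPM in caudate putamen (SD, n = 4), a ratio of 2.33. The motor, entorhinal and thalamic levels of Hmgcs1 lay within their spread of each other.

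The squalene enzymes had the widest range. Sqle, the epoxidase, stood at 180, 185 and 182 CPM in the entorhinal cortex of AL mice 63, 66 and 69. In the cerebellum the 4 AL mice gave 36.3, 36.0, 52.8 and 36.6 CPM. The ratio of the highest to the lowest region mean was 4.51 for Sqle and 3.45 for Fdft1, whose top regions were the entorhinal cortex at 254 ± 15.0 CPM (SD, n = 3) and the medulla at 250.4 ± 13.4 CPM (SD, n = 4). Entorhinal Sqle exceeded medullary Sqle, the next in order, with adjusted p = 0.0189 by edgeR's quasi-likelihood test. In PBS mice the thalamus was the highest region for both, at 149 ± 4.55 CPM (SD, n = 4) for Sqle and 230 ± 24.2 CPM (SD, n = 4) for Fdft1.

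Of the sterol enzymes, Lss varied least, from 41.8 ± 2.67 CPM in medulla to 26.1 ± 2.70 CPM in cerebellum (SD, n = 4 each), a ratio of 1.60. Cyp51 had a ratio of 2.49 and Dhcr7 of 2.18, both highest in medulla and lowest in cerebellum in AL mice. Insig1, like Idi1, Lss, Cyp51 and Dhcr7, was highest in medulla, at 132, 133, 145 and 130 CPM in AL mice 63, 66, 68 and 69. The pons of the same mice had 94.2, 96.8, 108 and 101 CPM, with no overlap. This pair had adjusted p = 0.0406 (edgeR quasi-likelihood) in a fit with no mouse term. The share of all genes that passed or did not overlap in this pair was not counted, so the separation is no mark of Insig1. Insig1 departed from the enzymes in the places of the cerebellum and the entorhinal cortex. Its level in cerebellum, 62.9 ± 5.36 CPM (SD, n = 4), ranked ninth, whereas the entorhinal cortex, first or second for Sqle, Fdft1, Hmgcs1 and Dhcr7, ranked twelfth at 54.3 ± 5.01 CPM (SD, n = 3).

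Neighbours in these orders mostly did not separate: of 14 neighbouring pairs per gene in AL mice, between 0 (Idi1 and Cyp51) and 3 (Hmgcs1, Sqle and Fdft1) passed the test. Over all 105 pairs of regions, the number that passed in AL mice was 82 for Fdft1, 78 for Sqle, 75 for Cyp51, 71 for Hmgcs1, 70 for Dhcr7, 68 for Insig1, 67 for Idi1 and 37 for Lss, where 47.4% of all gene and pair tests passed. In PBS mice it ran from 32 (Lss) to 72 (Fdft1), where 41.4% passed. Without PBS mouse 80 the number was 12 for Lss and 30 for Dhcr7, the latter 47 with all mice. The share of all gene and pair tests that passed without that mouse was not counted. Oligodendrocyte markers did not follow the same order: their summed median was 24017 CPM in medulla and 23618 CPM in pons, but 1160 CPM in entorhinal cortex, the lowest of the regions, and 17565 CPM in caudate putamen. Their part in the region levels was not tested.

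The 8 genes varied together. Across 30 control group means, all 28 pairs of the 8 had a positive Pearson correlation, with a median of 0.756 and a range from 0.382 to 0.946. Across 229 brain libraries, after each group's mean was taken away, all 28 were again positive, with a median of 0.454. These points share mice and libraries, so the values are descriptions. The other genes whose regional pattern was most like the mean of the 8, among 11973 genes, were Nsdhl (r = 0.955) and Fdps (r = 0.950), both enzymes of the same pathway. Mvk at 0.887, also of the pathway, was among the next 8, which included Tubb5, Nol3, Ppia, Elavl2, Cmas and Pgk1. Across libraries within groups, Msmo1 (r = 0.721) led and Sc5d (r = 0.659) was among the nearest, both of the pathway. Nsdhl was also among the 10 nearest, and 6 of the 10 were not enzymes of the pathway: Reep5, Tppp, Rab5b, Elavl2, Rnf14 and App, with r from 0.590 (App) to 0.639 (Reep5). The 13 other cholesterol synthesis enzymes had a median r of 0.808 by region and 0.493 by library, against -0.02 and 0.03 for all genes. Some of them, picked out after their values were seen, did not share the pattern: Ebp was at -0.01 by region and -0.15 by library, and Pmvk (0.04) and Tm7sf2 (0.05) lay near the value of all genes by library. Medians by region were -0.06 for oligodendrocyte, -0.11 for astrocyte, 0.04 for neuron and 0.41 for oligodendrocyte precursor markers. By library they were 0.22, 0.13, 0.23 and 0.16 in the same order, each above the 0.03 of all genes. Choroid plexus markers were at -0.23 by region and 0.19 by library, and microglia markers at 0.02 and 0.03. Endothelial markers were at 0.08 by region and -0.05 by library, and red blood cell markers (2 genes) at -0.17 and -0.12. The part of these cell types in the shared variation was not tested. By library, the mean of the 8 had a correlation of 0.01 with depth, -0.28 with the mitochondrial share and -0.23 with the share of the top 10 genes.

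Dietary restriction in the brain was tested with 1 value per mouse, the mouse's log2 CPM over its regions with the region levels taken out. None of the 8 genes passed (limma, Benjamini-Hochberg over 15616 genes, where 273 genes or 1.75% passed). The nearest was Lss, which was 0.19 higher on the log2 scale in restricted mice (SE 0.04, 95% interval 0.10 to 0.28, adjusted p = 0.0548, rank 291 of 15616 genes by p). The aDR mice 61, 62, 64, 65 and 67 had Lss values of 5.42, 5.37, 5.36, 5.41 and 5.20, and the AL mice 63, 66, 68 and 69 had 5.16, 5.20, 5.17 and 5.12. Thus 4 of the 5 restricted mice lay above every AL mouse, and mouse 67 lay just under AL mouse 66. Without mouse 67 the difference was 0.23 with adjusted p = 0.00528, past the threshold, where 2% of genes passed. Without only the pons library of that mouse it was 0.19 with adjusted p = 0.0348, where 2.03% passed. Leaving out any other single mouse gave adjusted p between 0.0751 and 0.149. RLE size factors in place of TMM gave 0.0497, where 1.74% passed. A fit over all libraries with the mouse as a block (voom and limma) put Lss at 0.20 with adjusted p = 6.9e-07, where 9.44% of genes passed, and also called Dhcr7. The same 2 genes passed in an edgeR fit with no block, which counts regions of a mouse as independent and called 16.1% of genes.

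Region by region, the Lss difference was positive in 15 of 15 brain regions. The differences ran from 0.03 in pons to 0.36 in hypothalamus, with a median of 0.20 on the log2 scale. Alone, no region passed after adjustment (edgeR quasi-likelihood, lowest adjusted p = 0.269, in visual cortex), and 7 had an unadjusted p under 0.05. None of the other 7 genes passed in a single region either. Of all genes, 0.251% passed in motor cortex, 0.22% in olfactory bulb, 0.202% in visual cortex, 0.0524% in cerebellum and 0.0215% in corpus callosum. The share was 0.0212% for the SVZ, 0.0146% for the caudate putamen, 0.00714% for the medulla, 0.00707% for the choroid plexus and 0% for the other 6 regions. The regions of a mouse are not independent, so the agreement of their signs is not counted as separate evidence. In the entorhinal cortex the aDR mice 61, 62, 64, 65 and 67 had 48.7, 47.4, 47.7, 51.8 and 46.3 CPM and the AL mice 63, 66 and 69 had 31.6, 39.4 and 40.0 CPM, with no overlap. The difference there was 0.35 (SE 0.09). The entorhinal cortex was the only 1 of 15 regions with no overlap for Lss. The share of all genes without overlap in it was not counted, so this separation is no mark of Lss. In the hypothalamus the aDR mice 62, 64, 65 and 67 had 54.5, 45.5, 46.6 and 29.5 CPM and the AL mice 63, 66, 68 and 69 had 33.2, 43.3, 31.9 and 27.7 CPM, so that 3 restricted mice stood above all controls and mouse 67 among them. In the visual cortex the aDR values of 44.5, 42.5, 42.1, 49.0 and 39.2 CPM overlapped the AL values of 37.1, 40.4, 31.2 and 33.3 CPM only through mouse 67. Mouse 67 was the lowest restricted mouse for Lss in 12 of 15 regions. In the cerebellum and pons, with differences of 0.03 each, the groups lay on top of each other.

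**Figure D2:**
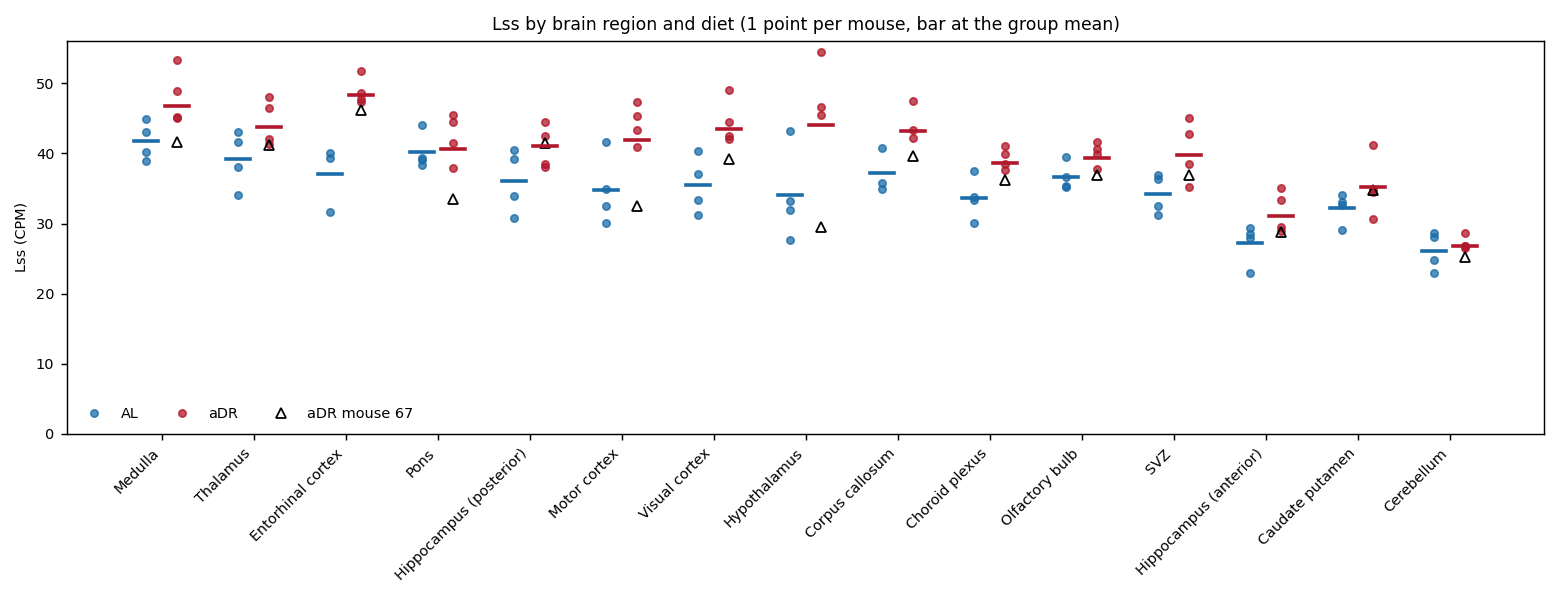
Lss (CPM, linear axis from 0) in each brain region of the diet cohort, 1 point per mouse, AL in blue and aDR in red, bars at the group means and open triangles for aDR mouse 67. The red bar is above the blue one in all 15 regions, and the triangle is often the lowest restricted point.

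The other 7 genes showed smaller differences between the diets. Dhcr7 was 0.10 lower in restricted mice (95% interval -0.21 to 0.00, limma adjusted p = 0.293) and had a negative difference in 14 of 15 regions. Its values were 5.50, 5.46, 5.42, 5.52 and 5.27 in aDR mice 61, 62, 64, 65 and 67, and 5.53, 5.58, 5.51 and 5.54 in AL mice 63, 66, 68 and 69, overlapping only through mouse 65. With the mouse as a block, voom and limma gave it -0.10 with adjusted p = 0.00874, and without mouse 67 the difference was -0.06 with adjusted p = 0.304. Cyp51 had -0.07 (adjusted p = 0.489), also negative in 14 of 15 regions, and Hmgcs1 -0.08 (adjusted p = 0.445), negative in 12. Idi1 (-0.06), Sqle (-0.03), Fdft1 (0.04) and Insig1 (0.05) had adjusted p of 0.621 or more. For these 7 the 95% intervals lay within -0.21 and 0.18. None of the 8 genes had mouse values that were all above or all below those of the other group, which 4.16% and 4.14% of genes had. Mouse 67 had the lowest brain value of all 9 mice for 5 of the 8 genes. No member's diet effect differed between regions (edgeR F test of region by diet, 0 of 8, 0 with an unadjusted p under 0.05, lowest unadjusted p = 0.541 for Lss, where 0.0128% of genes passed). Lss, Fdft1 and Insig1 thus lay above zero and the other 5 below it; differences between genes were not tested.

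Among related lists over all brain regions, 0 of 13 other cholesterol synthesis enzymes and 0 of 7 genes of sterol sensing and uptake passed, with median differences of -0.01 and -0.02 against -0.01 for all genes. The smallest p among the enzymes was that of Msmo1, at -0.13 (limma adjusted p = 0.176). In the sensing list it was that of Srebf2 itself, at -0.06 (adjusted p = 0.336). Of the 10 measured genes of cholesterol export, esterification and breakdown 0 passed; Abca1, the cholesterol exporter, was at 0.20 (adjusted p = 0.177) and Nr1h3, which encodes the sterol-sensing nuclear receptor LXR alpha, at -0.23 (adjusted p = 0.151). Of 9 fatty acid synthesis genes 1 fell, Elovl6, an elongase of long-chain fatty acids, by 0.16 (adjusted p = 0.0406), and 8 of the 9 had negative differences. Srebf1, the transcription factor that drives that list, was the exception at 0.15 (adjusted p = 0.0682). Beside the Lss difference, 5 of 5 red blood cell markers had positive differences (median 0.93, none past the threshold), 2 of 5 endothelial markers passed as lower (median -0.26), 1 of 6 microglia markers passed as lower (median -0.05), and oligodendrocyte markers had a median of 0.08 with 0 of 6 past it. Their part in the result was not tested.

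**Figure D3:**
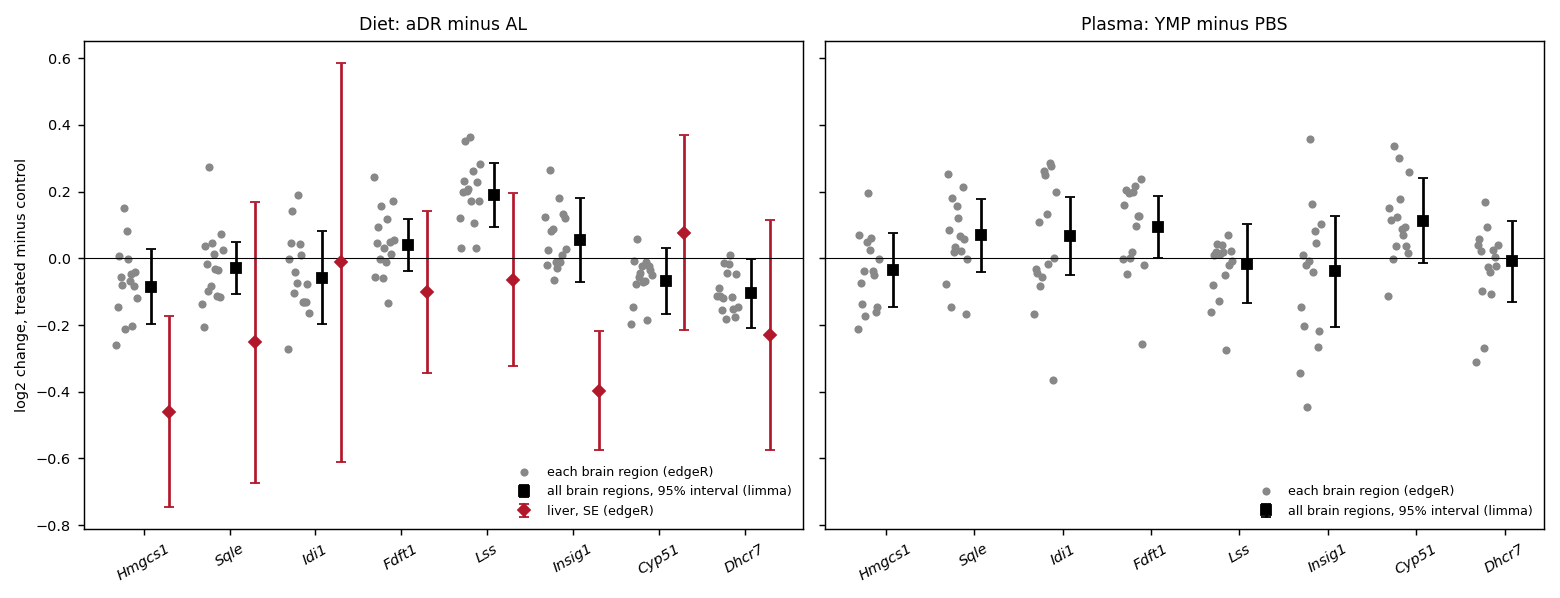
Difference between treated and control mice (log2, treated minus control) for the 8 genes, diet at left and plasma at right. Grey points are single brain regions (edgeR), black squares are all brain regions with the 95% interval (limma), and red diamonds are liver with the SE (edgeR). The diet points of Lss all lie above 0, and the liver errors are wider than the brain intervals.

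The liver of the same mice served, per the series' design, to check the restriction protocol. Liver had far more of each gene than brain: in AL mice all 8 were higher than the mean of the 15 regions, where 86.3% of genes passed in either direction. The log2 difference was largest for Insig1 at 3.72 (SE 0.07) and smallest for Sqle at 1.41 (SE 0.10), with a median of 2.21 against -0.28 for all genes (edgeR quasi-likelihood, adjusted p at most 6.1e-18). In the AL livers Hmgcs1 stood at 1202 ± 290 CPM, Insig1 at 882 ± 146, Fdft1 at 443 ± 109, Cyp51 at 357 ± 108, Sqle at 253 ± 102, Dhcr7 at 253 ± 93.2, Lss at 200.4 ± 47.6 and Idi1 at 108 ± 64.6 CPM (SD, n = 4 each). All 13 other cholesterol synthesis enzymes were also higher in liver.

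By diet, none of the 8 passed in liver (edgeR quasi-likelihood, 11815 genes, where 26 or 0.22% passed), although 7 of 8 had negative differences. The lowest p was that of Insig1, at -0.40 (SE 0.18, adjusted p = 0.534). Its AL mice 63, 66, 68 and 69 had 1036, 787, 732 and 974 CPM, and DR mice 61, 62, 64, 65 and 67 had 856, 618, 680.4, 637 and 494 CPM, so that 4 of 5 restricted mice were below every control. Hmgcs1 had the largest negative difference, -0.46 (SE 0.29, adjusted p = 0.715), with 1441, 794, 1204 and 1369 CPM in the AL mice in the same order and 1503, 683, 634, 852 and 606 CPM in the DR mice. Here mouse 61 stood above all controls while 3 other restricted mice stood below them. Without mouse 61 the Hmgcs1 difference was -0.76 with adjusted p = 0.195. Sqle (-0.25), Dhcr7 (-0.23), Fdft1 (-0.10), Lss (-0.06), Idi1 (-0.01) and Cyp51 (0.08) had errors of 0.24 to 0.60, wider than the differences themselves. Leaving out single mice moved these by more than 1.5 times, none of them past the threshold. Without mouse 61 they were -0.67 (Sqle), -0.52 (Dhcr7), -0.27 (Fdft1), -0.31 (Lss), -0.45 (Idi1) and -0.15 (Cyp51), and without AL mouse 66 they were -0.48, -0.43, -0.25, -0.15, -0.31 and -0.10 in the same order. Without AL mouse 69, in contrast, they were -0.08, -0.08, -0.0026, 0.06, 0.26 and 0.15.

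The spread among livers was wide and shared by the genes. Idi1 was at 214, 28.9, 33.6, 114 and 131 CPM in DR mice 61, 62, 64, 65 and 67 and at 159, 32.6, 75.1 and 164 CPM in AL mice 63, 66, 68 and 69, so each diet held both high and low livers. The ratio of the highest to the lowest liver was 7.42 for Idi1, 4.04 for Sqle and 3.08 for Dhcr7. Within groups the SD of Idi1 was 1.17 on the log2 scale in liver and 0.20 in brain regions, and that of Sqle 0.77 and 0.18, against medians of 0.30 and 0.17 for 9322 genes. Insig1, with an SD of 0.26 in liver, was steadier than the median gene. Across the 9 livers, deviations of the 8 genes from their group means had a median pairwise correlation of 0.867, with a range from 0.409 to 0.989. Mouse 61, a restricted mouse, had the highest liver level of all 9 for 7 of the 8 genes. In brain it was the highest for 2 of the 8. The 3 livers with the highest mitochondrial share of counts, mouse 62 at 8.04%, mouse 64 at 7.07% and mouse 66 at 4.88%, were also low in most of the 8 genes, and mouse 61 had the lowest share at 2.96%. Mouse 67 had a low share at 3.23%, and yet the lowest liver level of all 9 for Hmgcs1, Lss and Insig1. For the other genes it lay in the middle, at rank 4 for Idi1, Cyp51 and Dhcr7 and rank 6 for Sqle and Fdft1. The part of these shares in the levels was not tested.

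**Figure D4:**
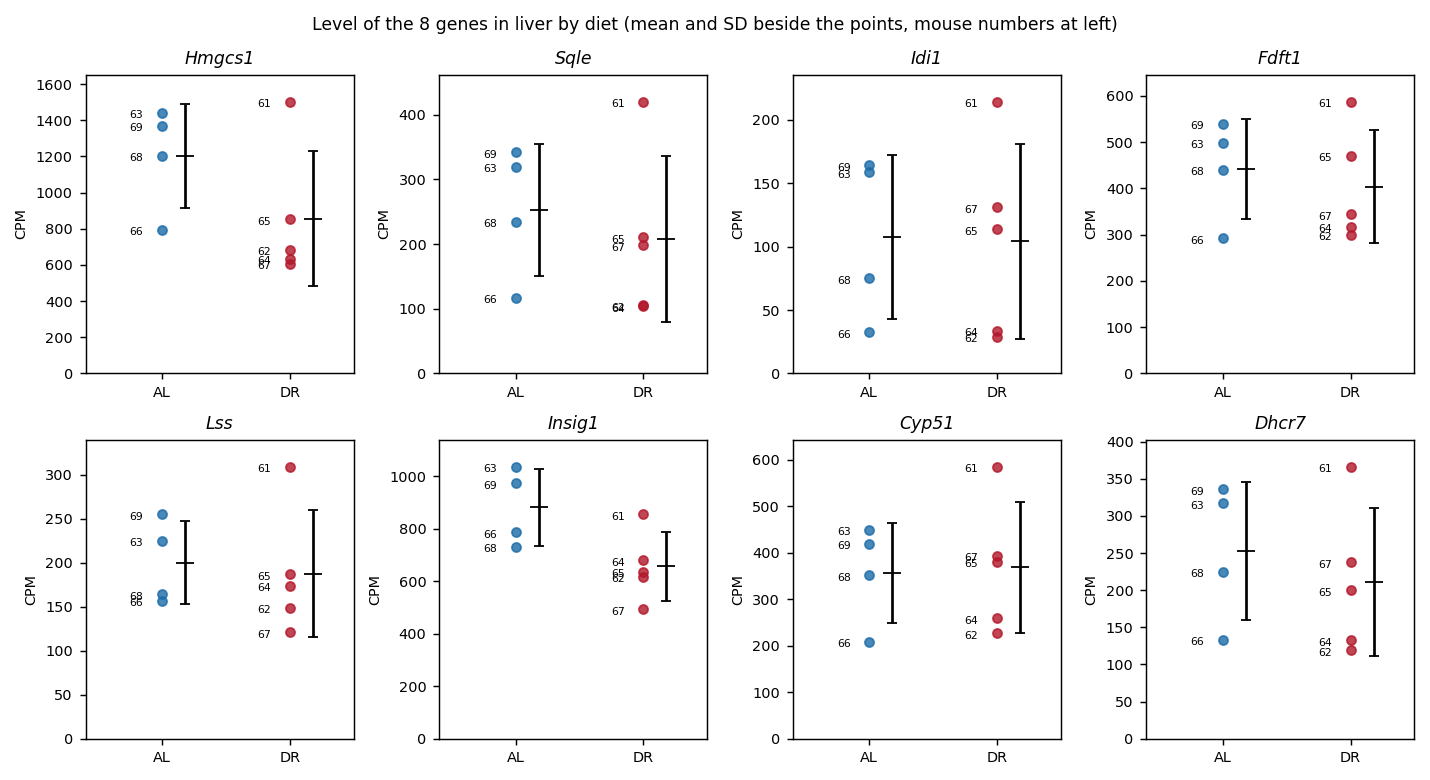
Level of the 8 genes in liver (CPM, linear axis from 0), 1 point per mouse with its number at left, mean and SD at right, AL in blue and DR in red. The points of both diets cover much the same range, mouse 61 is at the top in 7 of 8 panels, and mice 62, 64 and 66 are near the bottom in most.

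The liver effect itself was compared with the brain effect within mice. No member differed (limma on each mouse's liver minus brain value, 0 of 8, where 8 of 11350 genes or 0.0705% passed). The nearest was Insig1 at -0.47 (95% interval -0.86 to -0.07, adjusted p = 0.521), and it passed in edgeR over libraries with no block (adjusted p = 0.0144), where 5.55% of genes did. Lss, at 0.19 in brain, had -0.30 (95% interval -0.85 to 0.24, adjusted p = 0.871), so its liver and brain differences could not be told apart. In the liver, 10 of 13 other cholesterol synthesis enzymes had negative differences, led by Mvd, the mevalonate diphosphate decarboxylase, at -0.88 (adjusted p = 0.264), and none passed. All 9 fatty acid synthesis genes had negative differences, with a median of -0.79 against 0.02 for all genes, and none passed either: Scd1, the stearoyl-CoA desaturase, was at -1.63 (adjusted p = 0.498), Elovl6 at -0.88 (adjusted p = 0.429) and Acss2, which makes acetyl-CoA from acetate, at -0.96 (adjusted p = 0.525). Cyp7a1, the rate-limiting enzyme of bile acid synthesis, was at 0.54 (adjusted p = 0.401).

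Young plasma was tested in the same way over the brains of 3 YMP and 4 PBS mice. No gene of the table passed (limma, 15768 genes, 0%), and so none of the 8, of which 1 had an unadjusted p under 0.05. Fdft1 had a difference of 0.09 (95% interval 0.00 to 0.19, adjusted p = 0.594), with values of 7.34, 7.34 and 7.27 in YMP mice 73, 77 and 81 and of 7.20, 7.30, 7.21 and 7.17 in PBS mice 72, 76, 80 and 84. The groups overlapped through YMP mouse 81 and PBS mouse 76. Cyp51 had 0.11 (95% interval -0.01 to 0.24, adjusted p = 0.620), positive in 13 of 15 regions, with 6.49, 6.51 and 6.50 in the YMP mice against 6.35, 6.53, 6.40 and 6.27 in the PBS mice. Only PBS mouse 76 reached the YMP level. With the mouse as a block, voom and limma gave Cyp51 0.13 with adjusted p = 0.0419, where 3.08% of genes passed. With no block, edgeR over libraries called Cyp51 and Fdft1, where 13% of genes passed. Without PBS mouse 84 the difference was 0.07. Sqle and Idi1 had 0.07 each, Dhcr7 -0.01, Lss -0.02, Hmgcs1 -0.03 and Insig1 -0.04, all with adjusted p of 0.726 or more. None of the 8 had groups that did not overlap, which 4.72% of genes had upward and 5.34% downward. Lss had a 95% interval of -0.13 to 0.10 here.

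Within single regions, 0 of the 8 passed for plasma in any region (edgeR quasi-likelihood; 0% of genes passed in 13 regions, 0.184% in corpus callosum and 0.00738% in cerebellum). In corpus callosum the YMP group was only mice 77 and 81 (n = 2). The members leaned most to one side in 2 regions, picked out after their values were seen. In the hypothalamus 8 of 8 were higher in YMP mice, with a median of 0.20 on the log2 scale, and in the caudate putamen 7 of 8 had negative differences and Fdft1 none (0.00), with a median of -0.16 over the 8. Because the 8 genes varied together across libraries, their shared sign is not counted as separate evidence. Cyp51 in hypothalamus stood at 116, 117 and 127 CPM in YMP mice 73, 77 and 81 and at 98.1, 98.8 and 94.5 CPM in PBS mice 72, 80 and 84, without overlap, a difference of 0.30 (SE 0.08, adjusted p = 0.964). The share of all genes without overlap in the hypothalamus was not counted, so this separation is no mark of Cyp51. Insig1 had the largest difference there, 0.36 (SE 0.17), but its YMP values of 94.7, 82.1 and 78.2 CPM overlapped the PBS values of 64.1, 51.2 and 84.2 CPM. In the caudate putamen Insig1 was at 38.9, 37.0 and 31.2 CPM in the YMP mice and at 51.4, 42.6, 39.3 and 46.0 CPM in PBS mice 72, 76, 80 and 84, a difference of -0.34 (SE 0.13, adjusted p = 0.474). The test of unequal plasma effects across regions called 0 of the 8 (edgeR F test, lowest adjusted p = 0.868, for Insig1, 0 with an unadjusted p under 0.05, where 0.786% of genes passed).

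Of the 13 other cholesterol synthesis enzymes 9 had positive differences over the brain, with a median of 0.04, and 0 passed. The smallest p was that of Fdps, the farnesyl diphosphate synthase, at 0.12 (adjusted p = 0.509). Of the 9 fatty acid synthesis genes 8 had negative differences, with a median of -0.14, and 0 passed. Choroid plexus markers had negative differences in 6 of 6, with a median of -1.09, and oligodendrocyte markers were at a median of -0.14 with 6 of 6 negative, none past the threshold. Their part in the values of the 8 genes was not tested; without choroid plexus and corpus callosum the differences of the 8 ran from -0.04 (Insig1) to 0.12 (Cyp51).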

How the data were processed

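The authors deposited a single table of raw counts, in whole numbers, with a row for each gene and a column for each of 238 libraries. Per the labels' protocols, RNA was isolated with RNeasy columns, cDNA made with Smart-Seq2 and libraries with Nextera XT, unstranded. The submitters' processing notes name Trim Galore 0.3.7, STAR 2.5.3a, DESeq2 and GRCm38; the counting program is not given in the sources used here. Of 21076 genes, 537 had no count in any library.

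Here the counts were tested with edgeR 4.0.16 and limma 3.58.1 in R 4.3.3, with the members' rows taken from fits over all genes. Genes had to pass filterByExpr (minimum count 10, minimum total 15), libraries were scaled by TMM, and a gene was called at a Benjamini-Hochberg adjusted p under 0.05. Within a tissue and for region levels, edgeR's quasi-likelihood test was used. That test gives no SE. The SE printed with edgeR differences is the absolute log2 difference divided by the square root of F, and it need not match the p. Over the brain, log2 CPM (with 2 as the prior count) was fitted by region and mouse, and the mouse terms were compared between groups with limma, since regions of 1 mouse are not independent. Mouse numbers pair libraries across tissues of 1 animal and never across treatments. Correlations used log2(CPM + 1) and genes with a mean of at least 5 CPM. DESeq2 1.42.0, other scalings and filters, a mouse block and leaving out each mouse were alternatives. The main fits were tested on simulated data, in which the libraries of a mouse were drawn as independent. DESeq2, the voom fit and the other alternative fits were not tested in this way. P-values of treatments within a tissue, over the brain and for liver minus brain measure the spread between mice, and counting error sets the rest. Those of region levels, pairs of regions, liver level against brain and effects by region come from fits over libraries with no mouse term. These fits count regions of 1 mouse as independent. The 8 genes and all lists were chosen with earlier results of these data known. Beside the 8, a gene of a list was named where it passed a test or had 1 of the 3 smallest p of its list over the brain or in liver. Values of some single genes of the lists are not reported here.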

Additional observations from a re-analysis of the deposited data

Results flagged for a closer look

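Among 68 groups of 4 or 5 mice that were screened for a single value far from the rest, 5 stood out by Dixon's gap test, where chance gives about 3.4. In liver, Hmgcs1 of DR mouse 61 was at 1503 CPM, against 606 to 852 CPM in the other 4 restricted mice. In brain, Lss of aDR mouse 67 had a mouse value of 5.20 on the log2 CPM scale, against 5.36 to 5.42 in the other 4. Insig1 of AL mouse 66 had a brain value of 6.25, against 6.06 to 6.09 in the other controls. Sqle of AL mouse 69 was at 6.56, against 6.66 to 6.67. In pons, Lss of AL mouse 68 was at 44.1 CPM, against 38.3 to 39.3 CPM in the other controls.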

How the results depend on the processing

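The 0 members called for diet over the brain became 1 (Lss) with RLE size factors (adjusted p = 0.0497), without aDR mouse 67 and without its pons library, and 2 (Lss and Dhcr7) with the mouse as a replicate block in voom or with no replicate block in edgeR over libraries. For plasma the count became 1 (Cyp51) with the mouse as a replicate block and 2 (Cyp51 and Fdft1) with no replicate block. For liver against brain it became 1 (Insig1) with no replicate block. Fits with no replicate block count the regions of 1 mouse as independent. The mouse block changed no other number of members called for a treatment. Which pairs of regions passed with the mouse block was not followed. Over the single mice left out, Lss by diet over the brain ran from 0.17 to 0.23, and the number of members called from 0 to 1.

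Single mice were left out for the 8 members over the brain, in liver and for liver against brain, and in single regions for Lss by diet; the signs of the other members in single regions were not followed. Among these differences, none called, 12 changed sign. In liver, the ranges were -0.15 to 0.21 for Cyp51, -0.45 to 0.26 for Idi1 and -0.31 to 0.061 for Lss. For liver against brain they were -0.14 to 0.28 for Cyp51, -0.45 to 0.015 for Dhcr7 and -0.60 to 0.28 for Idi1. For plasma over the brain they were -0.045 to 0.028 for Dhcr7, -0.055 to 0.0034 for Hmgcs1, -0.095 to 0.015 for Insig1 and -0.045 to 0.032 for Lss. Lss by diet ran from -0.024 to 0.082 in cerebellum and from -0.014 to 0.085 in pons. In single regions no alternative called a member, DESeq2, 1 fit over all brain libraries and no filter included. The pons library of aDR mouse 67, the olfactory bulb library of YMP mouse 73 and the fits without a variance trend were alternatives chosen after seeing the data. The cause of these shifts was not tested. Groups of 2 to 5 mice, and libraries of as few as 606000 counts, limit the precision in single regions. Leaving out YMP mouse 77 or 81 left 1 YMP library in corpus callosum, which was assumed to vary like the PBS libraries.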
